A study of Mus musculus with 6 samples.

Results

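The genes of homologous recombination, the Fanconi anemia pathway, the DNA damage kinases and non-homologous end joining were followed in cultured satellite cells (SCs), the stem cells of adult skeletal muscle, from mice with and without Cre deletion of the gene for the transcription factor subunit NF-YA. The 43 genes were taken as a named list, whose rule uses no measured level but which was drawn up with earlier results of these data known, from the 35976 genes of the RNA-seq tables. They fall into 12 recombination mediators and strand exchange factors, 7 factors of break sensing, end resection and unwinding, 11 Fanconi genes, 8 damage kinases with their partners and mediators, and 5 end-joining genes. All 43 passed the count filter and were tested.
The study compared 3 libraries of NF-YA cKO SCs with 3 libraries of NF-YA fl/fl SCs. NF-YA cKO mice carried NF-YA alleles with LoxP sites in introns 2 and 8 together with a Pax7-CreERT2 transgene, which drives a tamoxifen-activated Cre recombinase in cells that express Pax7. NF-YA fl/fl mice carried the same floxed alleles and no Cre, and both genotypes received tamoxifen (5 injections on consecutive days, each of 0.1 mg per g). The labels give an age of 5-7 weeks and the Methods a slightly older one. Muscles were taken 7 days after the last injection, and SCs were enriched by depleting cells labelled with antibodies to CD31, CD45, CD11b and Sca1 and kept for 4 days in growth medium. Whether a library came from 1 mouse or from pooled mice is not given in the sources used here, so the p-values measure the spread between these libraries.
As background, a double-strand DNA break is sensed by the complex of Mre11, Rad50 and Nbn and can then take either of 2 main routes. In end joining the Ku proteins and DNA-dependent protein kinase hold the ends, and ligase IV with Xrcc4 seals them at any stage of the cell cycle. In homologous recombination, which needs the sister chromatid and so works in S and G2 phase, the ends are resected, and Brca1, Palb2 and Brca2 load the strand exchange protein. The Fanconi proteins unhook crosslinks at stalled replication forks, and Atm and Atr signal damage through the kinases Chek2 and Chek1. NF-Y is a trimer that binds CCAAT boxes, and NF-YA is the subunit that contacts the box.

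The NF-Y recognition word is in many members' promoters, so the promoters that show it best are printed here before the levels. RefSeq promoters (GRCm38.p6, from 250 bases before to 50 bases after a transcription start) were at hand for 33 of the 43 members. The word CCAAT, on either strand, was present in 20 of these 33 genes, and in 58.3% of the members' 36 promoters against 37.4% of 32851 promoters in all. The 4 words TTTCGCGC, TTTGGCGC, TTTCCCGC and TTTGCCGC, forms of the E2F recognition site of cell cycle genes, were present on either strand in 8 members and in 25.0% of members' promoters against 2.26% in all, or 3.40% of the promoters of tested genes. TTTGAA, the word of the cell cycle homology region, was found in Bard1 alone, in 2.78% of members' promoters against 17.9% in all, or 12.9% of the promoters of tested genes. No matches overlapped. A match describes these letters and is not a measured binding site. Capitals mark CCAAT, read as ATTGG on the other strand, or an E2F word, and positions count from the transcription start. The sequences shown are those of 4 recombination genes with a box near the start, of 4 genes with several boxes and of 4 genes with an E2F word. Rad51ap1 has a further box at -230 that is not shown.
Brca1, chr11:101552017-101552061, minus strand, box at -86: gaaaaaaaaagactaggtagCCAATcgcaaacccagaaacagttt
Rad54l, chr4:116123716-116123760, minus strand, box at -51: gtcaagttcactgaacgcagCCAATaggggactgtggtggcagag
Rad51ap1, chr6:126939599-126939643, minus strand, box at -36: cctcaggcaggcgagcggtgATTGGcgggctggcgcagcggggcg
Mre11a, chr9:14784561-14784640, plus strand, boxes at -73 and -38: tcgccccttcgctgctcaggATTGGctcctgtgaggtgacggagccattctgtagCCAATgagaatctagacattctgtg
Brip1, chr11:86201203-86201312, minus strand, boxes at -99, -67 and -34: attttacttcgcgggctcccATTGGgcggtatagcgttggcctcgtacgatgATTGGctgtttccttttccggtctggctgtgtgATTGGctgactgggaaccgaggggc
Fancf, chr7:51862274-51862405, minus strand, boxes at -118, -72 and -31: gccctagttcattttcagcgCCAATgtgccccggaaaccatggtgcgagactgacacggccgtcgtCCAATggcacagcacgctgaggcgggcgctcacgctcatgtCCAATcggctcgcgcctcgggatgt
Fanca, chr8:123318577-123318646, minus strand, boxes at -50 and -23: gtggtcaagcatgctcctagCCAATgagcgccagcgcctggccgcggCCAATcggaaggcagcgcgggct
Xrcc3, chr12:111813882-111814129, minus strand, 6 boxes from -237 to -27: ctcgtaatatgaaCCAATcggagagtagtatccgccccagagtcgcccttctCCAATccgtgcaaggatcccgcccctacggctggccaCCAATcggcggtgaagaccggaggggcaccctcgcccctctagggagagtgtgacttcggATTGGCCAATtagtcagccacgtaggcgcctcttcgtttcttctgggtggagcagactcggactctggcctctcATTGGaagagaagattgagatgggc
Bard1, chr1:71103154-71103201, minus strand, E2F word at -209: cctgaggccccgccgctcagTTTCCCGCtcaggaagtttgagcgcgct
Brca2, chr5:150522433-150522480, plus strand, E2F word at -168: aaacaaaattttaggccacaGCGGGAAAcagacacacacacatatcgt
Topbp1, chr9:103305178-103305225, plus strand, E2F word at -129: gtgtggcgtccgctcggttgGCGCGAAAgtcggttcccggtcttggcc
Mdc1, chr17:35841403-35841497, plus strand, box at -75 and E2F word at -16: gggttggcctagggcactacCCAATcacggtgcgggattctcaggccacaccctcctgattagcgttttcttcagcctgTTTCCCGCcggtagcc
The first bases of neighbouring boxes were 32 and 33 bases apart in Brip1, a helicase that binds Brca1, 35 in Mre11a, the break nuclease, 46 and 41 in Fancf and 27 in Fanca, both of the Fanconi core complex. Xrcc3, a paralog of the strand exchange protein, held 6 boxes, the most among members.

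**Figure D1:**
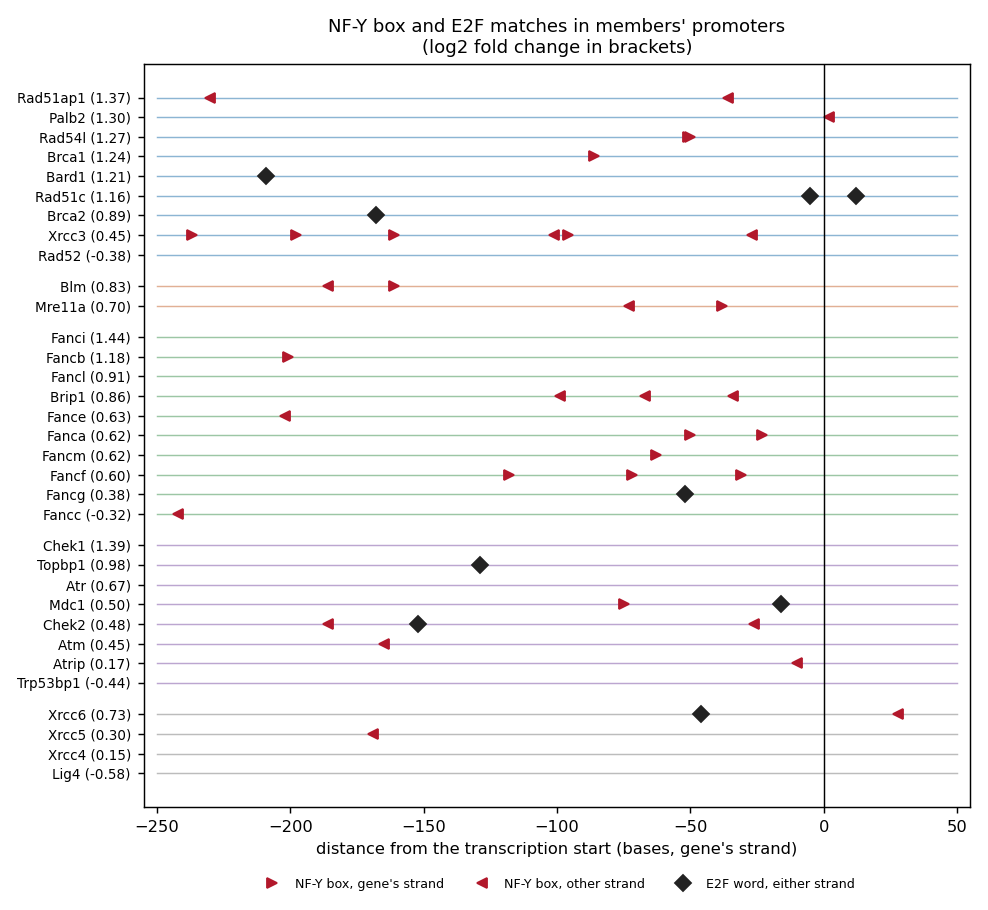
Position of each CCAAT match (NF-Y box, triangles pointing along the strand of the match) and each E2F word (diamonds) relative to the transcription start, in bases, for the 33 members with a RefSeq promoter, ordered within their group by the log2 fold change of the gene, given in brackets. Rad52, Trp53bp1 and Lig4, the members that were lower in NF-YA cKO at an FDR under 0.05 by edgeR, have neither word in this window. Fancc, whose decrease just missed that FDR (0.0572), has a box at -242.

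Library totals ran from 26936230 to 41118984 expected counts, and 3 counts are worth 0.0705 to 0.115 CPM, the count scaled to library size. The transcript of the deleted NF-YA allele took 22.3% to 34.2% of Nfya counts in NF-YA cKO and 0 in NF-YA fl/fl, the rest being assigned to forms that are not deleted. Total Nfya stood at 9.25, 8.38 and 9.19 TPM in NF-YA cKO against 7.33, 9.87 and 9.67 TPM in NF-YA fl/fl, and the groups overlapped (log2 fold change -0.06 ± 0.18, FDR = 0.814 by edgeR). NF-YA cKO therefore names the genotype of the libraries, and not an absence of Nfya RNA. Xist stood at 45.5 to 54.5 TPM in NF-YA cKO and at 0.02 to 0.03 TPM in NF-YA fl/fl, and the Y-linked Ddx3y at 0.01 to 0.02 and 16.8 to 25.9 TPM, although the Methods describe male mice. Sex-linked expression and genotype therefore cannot be told apart in any comparison below. Levels of cell type markers also differed between the genotypes. The summed level of 9 SC markers was 871 to 990.2 TPM in NF-YA cKO and 1380 to 1729 TPM in NF-YA fl/fl, with Cdh15 and Des called lower, and at an FDR under 0.05 3 were lower and 3 were higher, Pax7 (log2 fold change 0.94), Vcam1 (0.86) and Sdc4 (0.80). The median over the 9 was -0.08. All 9 tested markers of terminal muscle were called lower, with a sum of 50.2 to 101.7 TPM against 4592 to 7054 TPM, and all 8 macrophage markers were called higher, with a sum of 151 to 289 TPM against 3.77 to 14.4 TPM. Without 1 library 3 to 8 macrophage markers were called, the fewest without NF-YA cKO replicate 2, and all 8 stayed higher at an FDR under 0.05. Fibro-adipogenic markers summed to 381 to 534 TPM in NF-YA cKO and 197 to 826 TPM in NF-YA fl/fl (1 of 7 called higher, Lum, and 0 to 2 without 1 library) and endothelial markers to 3.60 to 4.67 and 1.02 to 3.17 TPM (1 of 5, Kdr). None of these markers was at 0 in all libraries. The part of these differences in the results below was not tested, and in bulk cultures fewer cells of a type and less RNA per cell cannot be told apart.

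Log2 fold changes are given ± their standard error from edgeR, and CPM means ± SD (n = 3). Most of the recombination, Fanconi and kinase genes were higher in NF-YA cKO, while the 5 end-joining members as a group were not. At an FDR below 0.01 and more than a doubling on the log2 scale, that is above 1 (edgeR's quasi-likelihood test, Benjamini-Hochberg adjustment over 17348 genes), 8 of the 43 members (18.6%) were called higher in NF-YA cKO, where 4.65% of all tested genes were. These were Brca1, Bard1, Palb2, Rad51ap1 and Rad54l of the recombination group, the resection nuclease Exo1, the Fanconi protein Fancd2 and the kinase Chek1. By edgeR, DESeq2 and every alternative at these thresholds 0 members were called lower, where edgeR called 7.67% of all tested genes lower, and 4 members were lower at an unadjusted p under 0.05. At an FDR under 0.05, 28 members (65.1%) were higher, where 19.7% of all tested genes were, and 3 were lower (Rad52, Trp53bp1 and Lig4), where 18.9% were. The remaining 12 did not pass. In 30 members all 3 NF-YA cKO libraries lay above all 3 NF-YA fl/fl libraries, where 29.1% of tested genes did so, and in 4 they lay below, where 26.2% did. Members had a median log2 fold change of 0.70 and all tested genes one of -0.02, and 38 members were above 0.
The counts changed when 1 library was left out, which also leaves the test fewer libraries. Without NF-YA cKO replicate 1, 2 or 3 in turn, 3, 1 and 3 members were called higher, and without NF-YA fl/fl replicate 1, 2 or 3, 4, 15 and 10 were. The shares of all tested genes that passed in these fits are not given here. A change particular to the members therefore cannot be told from one over all genes. Bard1 was called in all 6 of these fits, Fancd2 in 5, Chek1 in 4, Palb2 and Rad51ap1 in 3, and Brca1, Rad54l and Exo1 in 2. At an FDR under 0.05, 17 members were higher and 1, Trp53bp1, was lower in each of the 6 fits.

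**Figure D2:**
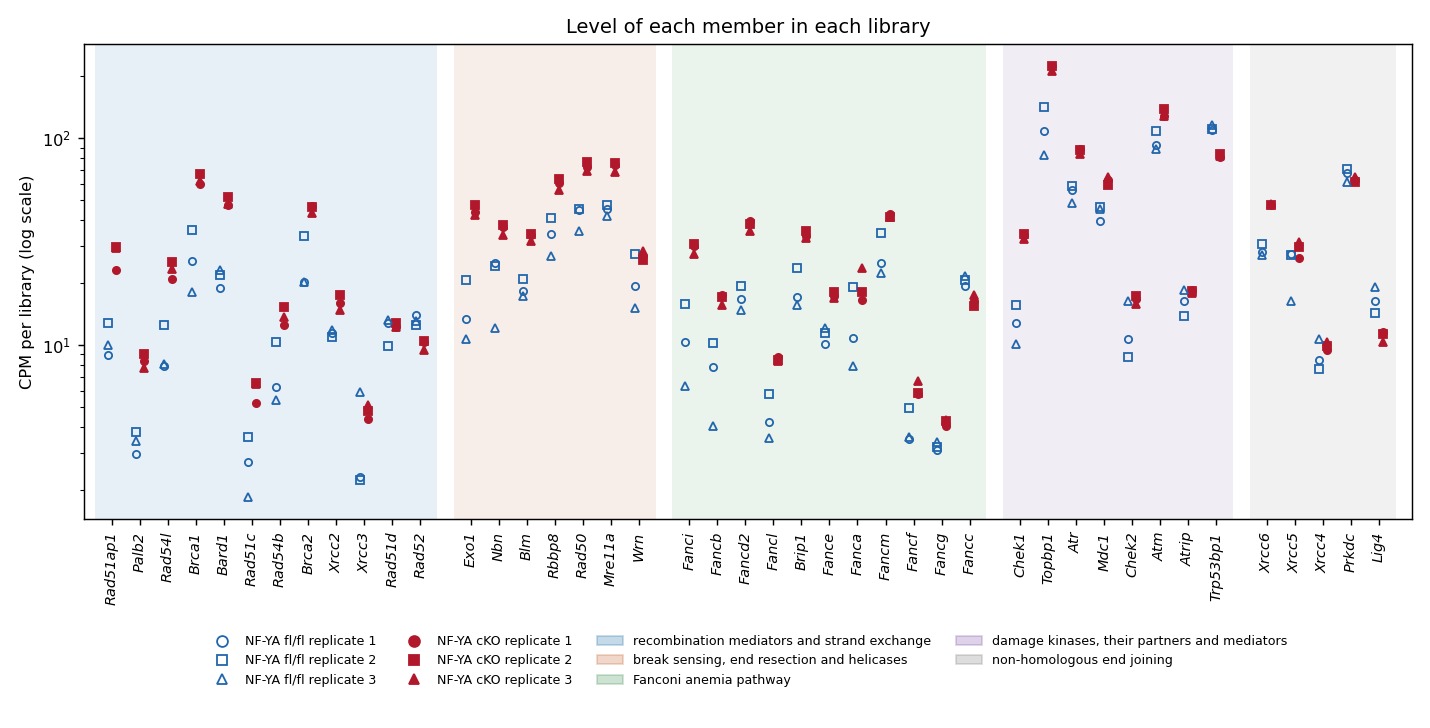
CPM of each member in each of the 6 libraries (log axis), with open blue symbols for NF-YA fl/fl, filled red symbols for NF-YA cKO and the symbol shape for the replicate number. The NF-YA cKO libraries lie close together, and in 30 members they lie above all NF-YA fl/fl libraries.

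Recombination mediators and strand exchange factors held the largest share of called members. Of 12, 5 were called, 9 were higher and 1 was lower at an FDR under 0.05, and the median log2 fold change was 1.04. Brca1, a ubiquitin ligase that directs breaks to recombination (chromosome 11, 101488761 to 101551955), stood at 59.9, 66.9 and 61.9 CPM in NF-YA cKO replicates 1, 2 and 3 against 25.4, 36.1 and 18.1 CPM in NF-YA fl/fl replicates 1, 2 and 3. The groups did not overlap, and the NF-YA fl/fl libraries spread more widely. Its mean rose from 26.5 ± 9.03 to 62.9 ± 3.61 CPM (SD, n = 3), for a log2 fold change of 1.24 ± 0.24 (FDR = 0.00713 by edgeR), and it kept the call only without NF-YA fl/fl replicate 2 or 3 when single libraries were left out (highest FDR 0.039).
Bard1, the obligate partner of Brca1 (chromosome 1, 71027535 to 71103141), stood at 47.5, 52.1 and 48.0 CPM in NF-YA cKO against 18.9, 21.8 and 23.1 CPM in NF-YA fl/fl. It had the smallest FDR of the 43 members, 0.000583, with a log2 fold change of 1.21 ± 0.11. Palb2, the bridge between Brca1 and Brca2 (chromosome 7, 122107262 to 122132980), was among the low members. Its levels were 8.32, 9.07 and 7.73 CPM in NF-YA cKO and 2.98, 3.78 and 3.43 CPM in NF-YA fl/fl, for a log2 fold change of 1.3 ± 0.17 (FDR = 0.0019). Brca2, which loads the strand exchange protein onto resected DNA, had a log2 fold change of 0.89 (FDR = 0.0157), and missed an FDR of 0.05 without any 1 of NF-YA cKO replicates 1, 2 or 3 or NF-YA fl/fl replicate 1 (up to 0.068).
Rad51ap1, which stimulates strand invasion (chromosome 6, 126923415 to 126939621), stood at 22.9, 29.9 and 29.5 CPM in NF-YA cKO against 8.95, 12.8 and 9.97 CPM in NF-YA fl/fl. The lowest NF-YA cKO library was above the highest NF-YA fl/fl library, and the log2 fold change was 1.37 (standard error 0.18, FDR = 0.00193). Rad54l, a motor protein that acts with the strand exchange filament (chromosome 4, 116094261 to 116123700), stood at 20.9, 25.1 and 23.3 CPM and at 7.95, 12.5 and 8.11 CPM, for a log2 fold change of 1.27 ± 0.21 (FDR = 0.00399). Its relative Rad54b had a log2 fold change of 0.91 (FDR = 0.03). With single libraries left out, Rad54b passed an FDR of 0.05 only without NF-YA fl/fl replicate 2 or 3 (up to 0.123).
Of the 4 paralogs of the strand exchange protein among the members, 2 passed. Rad51c, found in both paralog complexes, had a log2 fold change of 1.16 (FDR = 0.0155) and Xrcc2 one of 0.50 (FDR = 0.0187), whereas Rad51d, the direct partner of Xrcc2, was at 0.05 ± 0.15 (FDR = 0.798) and Xrcc3, the partner of Rad51c, at 0.45 ± 0.40 (FDR = 0.399). In Xrcc3 the third NF-YA fl/fl library set the spread, with 4.37, 4.78 and 5.10 CPM in NF-YA cKO against 2.29, 2.23 and 5.90 CPM in NF-YA fl/fl. Without that library Xrcc3 passed, with a log2 fold change of 1.07 and an FDR of 0.004. With single libraries left out, Rad51c passed an FDR of 0.05 in 3 of 6 fits and Xrcc2 in 2 (up to 0.074 and 0.117). Differences between paralogs were not tested.
Rad52, an annealing protein that acts beside Brca2 in mammals (chromosome 6, 119901722 to 119922827), went the other way. It stood at 10.3, 10.4 and 9.47 CPM in NF-YA cKO against 14.0, 12.5 and 13.0 CPM in NF-YA fl/fl. The groups did not overlap, but the decrease was small, with a log2 fold change of -0.38 ± 0.12 (FDR = 0.0486), and it passed that FDR only without NF-YA fl/fl replicate 2 or 3 when single libraries were left out (up to 0.153).

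All 7 genes of break sensing, resection and unwinding had a log2 fold change above 0, with a median of 0.81, and 6 were higher at an FDR under 0.05. Exo1, the nuclease of long-range resection (chromosome 1, 175880768 to 175911396), had the largest change of the 43 members. It stood at 44.0, 47.3 and 42.7 CPM in NF-YA cKO against 13.3, 20.5 and 10.7 CPM in NF-YA fl/fl. Its log2 fold change was 1.59 (standard error 0.24, FDR = 0.00292), and the call held only without NF-YA fl/fl replicate 2 or 3 when single libraries were left out (FDR up to 0.020).
The 3 subunits of the sensor complex all rose, with log2 fold changes of 0.70 to 0.84. Mre11a, its nuclease (chromosome 9, 14784654 to 14837125), stood at 74.5, 76.0 and 68.9 CPM in NF-YA cKO against 45.5, 47.3 and 42.1 CPM in NF-YA fl/fl. The libraries of each genotype were tight, and the log2 fold change of 0.70 ± 0.09 (FDR = 0.00189) was below the fold threshold. Rad50, its ATPase, had a log2 fold change of 0.80 ± 0.12 (FDR = 0.00302). Nbn, the subunit that recruits Atm, stood at 37.2, 38.0 and 34.0 CPM in NF-YA cKO against 25.0, 24.1 and 12.1 CPM in NF-YA fl/fl. It passed more narrowly (log2 fold change 0.84 ± 0.26, FDR = 0.0435), the third NF-YA fl/fl library being far below the others, and without 1 library its FDR ranged up to 0.147.
Rbbp8, which starts resection with the sensor complex, stood at 60.5, 63.2 and 56.1 CPM in NF-YA cKO against 34.4, 41.3 and 27.0 CPM in NF-YA fl/fl (log2 fold change 0.81, FDR = 0.00849). Without NF-YA cKO replicate 2 its FDR was 0.051. Of the RecQ helicases, Blm had a log2 fold change of 0.83 ± 0.11 (FDR = 0.0021) and Wrn one of 0.39 ± 0.21 (FDR = 0.192). In Wrn the second NF-YA fl/fl library, at 27.5 CPM, lay within the range of NF-YA cKO, 25.9 to 28.5 CPM. Without that library Wrn passed, with an FDR of 0.015.

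Of the 11 Fanconi genes 7 were higher at an FDR under 0.05 and 1, Fancd2, was called. The median log2 fold change was 0.63. Fancd2 and Fanci form the clamp that the pathway attaches ubiquitin to. Fancd2 (chromosome 6, 113531640 to 113597020) stood at 39.6, 38.4 and 35.7 CPM in NF-YA cKO against 16.6, 19.3 and 14.7 CPM in NF-YA fl/fl, for a log2 fold change of 1.17 ± 0.13 (FDR = 0.00109). Fanci had a log2 fold change of 1.44, but its NF-YA fl/fl libraries ranged from 6.34 to 15.8 CPM, and its FDR of 0.0106 lay just outside the threshold. Without NF-YA fl/fl replicate 2 or 3 Fanci was called, with an FDR of 0.003.
Of the core complex and its accessory proteins, 5 were higher at an FDR under 0.05. Fancb, on chromosome X (164980480 to 164997272), had a log2 fold change of 1.18 ± 0.31 (FDR = 0.0243), beside a sex-linked difference between the genotypes whose part in it cannot be told apart. Fancl, the ubiquitin ligase of the complex, was at 0.91 (FDR = 0.0143), and Fancm, the translocase that anchors it to DNA, at 0.62 (FDR = 0.0283). Fance, the most abundant Fanconi member per length, stood at 17.2, 18.0 and 16.8 CPM in NF-YA cKO against 10.1, 11.4 and 12 CPM in NF-YA fl/fl (log2 fold change 0.63 ± 0.12, FDR = 0.0079). Brip1, the helicase partner of Brca1, had a log2 fold change of 0.86 (FDR = 0.00833). When single libraries were left out, Fancb, Fancl and Fancm passed an FDR of 0.05 only without NF-YA fl/fl replicate 2 or 3. Their FDR ranged up to 0.090, 0.065 and 0.104. Fance missed that FDR without NF-YA cKO replicate 2 (0.054), and Brip1 passed it in all 6 fits.
Among the members that did not pass, Fanca, Fancf and Fancg had log2 fold changes of 0.62, 0.60 and 0.38 (FDR = 0.17, 0.0508 and 0.108). Without NF-YA fl/fl replicate 2 Fanca and Fancf passed, each with an FDR of 0.015. Fancc, a core subunit (chromosome 13), was the Fanconi gene below 0. It stood at 16.3, 15.5 and 17.4 CPM in NF-YA cKO against 19.2, 20.7 and 21.6 CPM in NF-YA fl/fl. All NF-YA cKO libraries were below all NF-YA fl/fl libraries, with a log2 fold change of -0.32 ± 0.11 (FDR = 0.0572).

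Of the 8 damage kinases, partners and mediators, 5 were higher and 1 was lower at an FDR under 0.05, with a median log2 fold change of 0.49. In the Atr arm, which answers to stalled forks, Chek1, the effector kinase (chromosome 9, 36708482 to 36726658), stood at 34.2, 34.5 and 32.4 CPM in NF-YA cKO against 12.7, 15.6 and 10.1 CPM in NF-YA fl/fl. Its log2 fold change was 1.39 (standard error 0.17, FDR = 0.00146). Topbp1, the activator of Atr and the most abundant of all 43 members per length, stood at 222, 224 and 211 CPM in NF-YA cKO against 108, 142 and 83.2 CPM in NF-YA fl/fl. It passed in FDR and fell just short of the fold threshold (log2 fold change 0.98 ± 0.19, FDR = 0.00735), and was called without NF-YA fl/fl replicate 2 (FDR = 0.002). Atr itself stood at 88.2, 87.8 and 83.5 CPM and at 56.3, 58.5 and 48.8 CPM, for a log2 fold change of 0.67 (FDR = 0.0029). Atrip, the protein that brings Atr to single-stranded DNA, had a log2 fold change of 0.17 ± 0.14 (FDR = 0.365).
In the Atm arm, which answers to breaks, Atm had a log2 fold change of 0.45 ± 0.10 (FDR = 0.0149), and its FDR ranged up to 0.098 when NF-YA cKO replicate 2 or other single libraries were left out. Its effector kinase Chek2 was at 0.48 ± 0.23 (FDR = 0.141), and without NF-YA fl/fl replicate 3 it passed, with an FDR of 0.004. Mdc1, the scaffold that binds phosphorylated H2AX, had a log2 fold change of 0.50 (FDR = 0.00792).
Trp53bp1, the chromatin reader that shields ends from resection and so favours end joining (chromosome 2, 121194835 to 121296354), was lower. It stood at 81.1, 83.4 and 82.2 CPM in NF-YA cKO against 109, 111 and 116 CPM in NF-YA fl/fl. The libraries of each genotype were within a few CPM of each other, and the mean fell from 112 ± 3.33 to 82.2 ± 1.19 CPM (SD, n = 3, log2 fold change -0.44 ± 0.08, FDR = 0.00528). Its FDR stayed under 0.05 without any 1 library (up to 0.031). The test of the difference from Brca1, its antagonist in the choice of route, was not run. Their ratio per length, Brca1 TPM over Trp53bp1 TPM, was 0.907, 1.03 and 0.975 in NF-YA cKO and 0.278, 0.382 and 0.197 in NF-YA fl/fl.

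The 5 end-joining genes showed no common direction, with a median log2 fold change of 0.15. Other genes of end joining are counted in a mixed list below, in which the end-joining nuclease Dclre1c was called higher. By edgeR and by DESeq2 0 were called, and at an unadjusted p under 0.05 1 was higher and 1 lower, in both tests. Xrcc6, the Ku70 subunit of the end-binding heterodimer (chromosome 15, 81987833 to 82040085), was the member that rose. It stood at 47.4, 47.4 and 48.1 CPM in NF-YA cKO against 28.1, 30.9 and 27.1 CPM in NF-YA fl/fl, for a log2 fold change of 0.73 ± 0.09 (FDR = 0.0017). Xrcc5, the Ku80 subunit, stood at 26.4, 29.7 and 31.3 CPM and at 27.4, 27.1 and 16.4 CPM. Its groups overlapped, and the log2 fold change of 0.30 ± 0.21 did not pass (FDR = 0.285).
Prkdc, the catalytic subunit of DNA-dependent protein kinase, stood at 63.0, 61.1 and 65.2 CPM in NF-YA cKO against 67.7, 71.1 and 61.2 CPM in NF-YA fl/fl (log2 fold change -0.08 ± 0.09, FDR = 0.527). Xrcc4, the partner of ligase IV, stood at 9.41, 9.92 and 10.3 CPM and at 8.45, 7.67 and 10.7 CPM (log2 fold change 0.15 ± 0.17, FDR = 0.516). Neither group of values separated the genotypes. Lig4, the ligase itself (chromosome 8, 9970020 to 9977680), had the largest decrease of the 43 members. It stood at 11.5, 11.3 and 10.3 CPM in NF-YA cKO against 16.3, 14.3 and 19.0 CPM in NF-YA fl/fl, for a log2 fold change of -0.58 ± 0.15 (FDR = 0.0197). Without NF-YA cKO replicate 1, 2 or 3 it no longer passed (FDR up to 0.070).

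**Figure D3:**
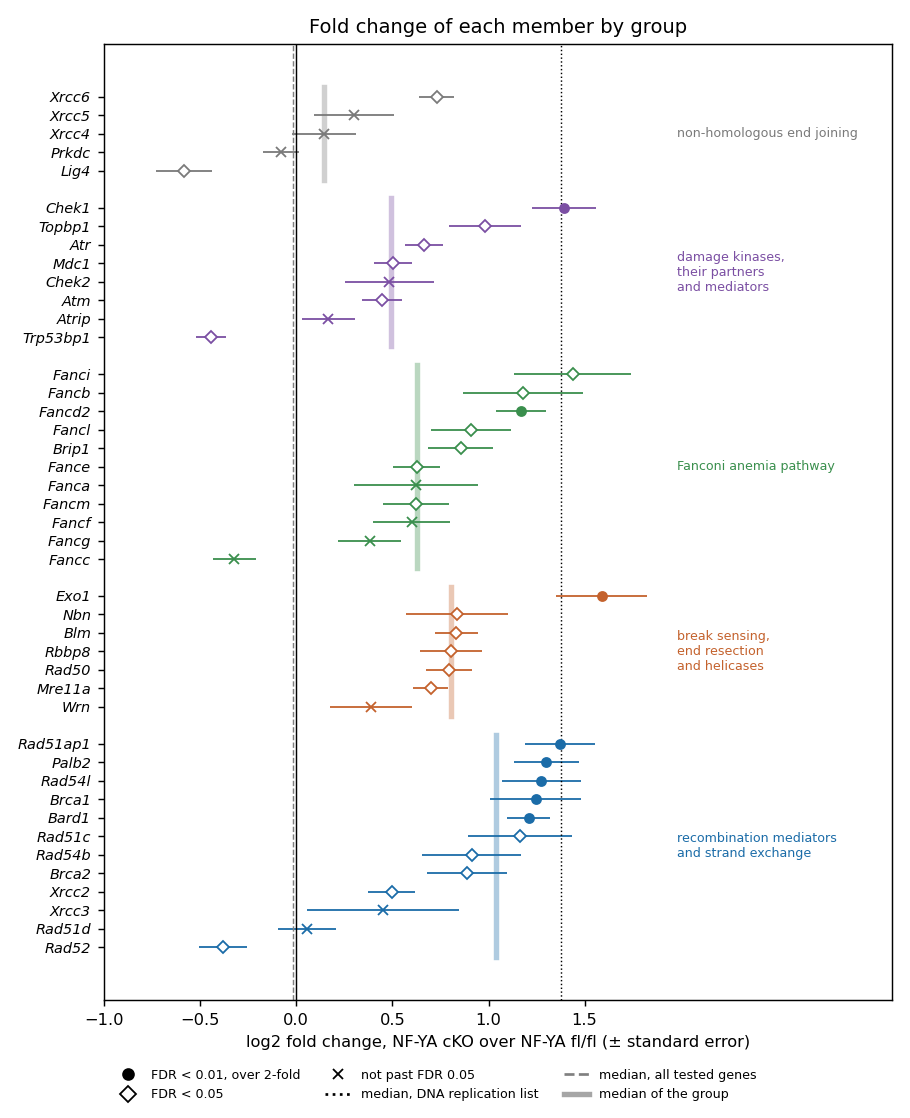
Log2 fold change of each member, NF-YA cKO over NF-YA fl/fl, with its standard error from edgeR, by group. Filled circles are called members, open diamonds passed an FDR of 0.05 and crosses did not, the thick bars are the group medians from 1.04 (recombination) to 0.15 (end joining), and the vertical lines mark the medians of all tested genes (dashed, -0.02) and of the DNA replication list (dotted, 1.38).

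Set side by side, the group medians of the log2 fold change were 1.04 for recombination, 0.81 for sensing and resection, 0.63 for Fanconi, 0.49 for kinases and mediators and 0.15 for end joining, against -0.02 over all tested genes. These are descriptions of lists with 5 to 12 genes, and the differences between groups were not tested. Library by library, the median over recombination genes of log2(CPM + 0.5) relative to each gene's NF-YA fl/fl mean was 0.92, 1.12 and 1.0 in NF-YA cKO replicates 1, 2 and 3 and -0.16, 0.21 and -0.04 in NF-YA fl/fl replicates 1, 2 and 3. For Fanconi genes it was 0.68, 0.66 and 0.81 against -0.09, 0.34 and -0.24. For end-joining genes it was 0.08, 0.16 and 0.21 against -0.01, 0.09 and -0.08, so that the highest NF-YA fl/fl library reached the lowest NF-YA cKO library.
Genes of neighbouring pathways, outside the 43, were counted on the same scale. Of 48 other genes of recombination, crosslink repair, checkpoint and end joining, 12 were called higher, and 30 were higher and 1 lower at an FDR under 0.05, with a median log2 fold change of 0.52. The largest changes among the called genes were those of Dna2, a nuclease-helicase of resection (1.61), H2afx, the histone variant marked at breaks (1.54), Dclre1c, the hairpin-opening nuclease of end joining (1.48), Timeless, a fork protection factor (1.47), Eme1, a subunit of a junction-cutting nuclease (1.41), and Ube2t, the ubiquitin-conjugating enzyme of the Fanconi clamp (1.25). The gene that was lower was the crosslink nuclease Fan1 (-0.47, FDR = 0.035, chosen after its value was seen). Of 26 genes of mismatch, base excision and nucleotide excision repair, 3 were called higher, among them the uracil glycosylase Ung (1.55) and the replicative ligase Lig1 (1.46), and 15 were higher and 1 lower at an FDR under 0.05 (Neil1, a base excision glycosylase, -0.60, FDR = 0.0468, chosen after its value was seen). The median was 0.51. Without NF-YA cKO replicate 1, 2 or 3 in turn, 3, 2 and 3 of the 48 genes were called and 0 of the 26 each time. Without NF-YA fl/fl replicate 1, 2 or 3, 5, 13 and 10 of the 48 and 0, 6 and 3 of the 26 were. At an FDR under 0.05, at least 18 of the 48 and 7 of the 26 were higher in each of these fits. At an unadjusted p under 0.05 by edgeR, at least 13 of the 26 were higher in each.
DNA replication and mitosis lists had higher medians. Of 20 replication genes 18 were called higher, with a median log2 fold change of 1.38, and the largest were Rrm2, Cdc6, Mcm5, Gins1, Mcm10 and Mcm3 (1.54 to 1.71). Of 14 mitosis genes 12 were called higher, with a median of 1.27, and the largest were Aurka, Ccnb1, Ttk, Bub1, Aurkb and Cdk1 (1.28 to 1.47). These counts also changed when 1 library was left out, which leaves the test fewer libraries. Without NF-YA cKO replicate 1, 2 or 3 in turn, 8, 6 and 8 replication genes and 1, 1 and 1 mitosis genes were called, and without NF-YA fl/fl replicate 1, 2 or 3, 11, 18 and 15 and 1, 13 and 10 were. At an FDR under 0.05, at least 18 replication and 12 mitosis genes were higher in each of these fits. NF-YA fl/fl replicate 2 was the highest NF-YA fl/fl library in 28 of 43 members, 19 of 20 replication genes and 14 of 14 mitosis genes, where it was so in 35.7% of all tested genes. Replicate 3 was the lowest in 25, 16 and 12, where it was so in 38.0% of all tested genes. Among the 12 recombination genes, which held most of the calls, replicate 2 was the highest in 7 and replicate 3 the lowest in 4. The replication median was -0.00, 0.31 and -0.28 in NF-YA fl/fl replicates 1, 2 and 3 and 1.35, 1.47 and 1.34 in NF-YA cKO. How far the members' differences belong to a difference in the share of cycling cells was not tested. Over the members, the median SD of log2 CPM was 0.27 in NF-YA fl/fl and 0.07 in NF-YA cKO, and over all tested genes the biological coefficient of variation was 0.310 and 0.105.

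**Figure D4:**
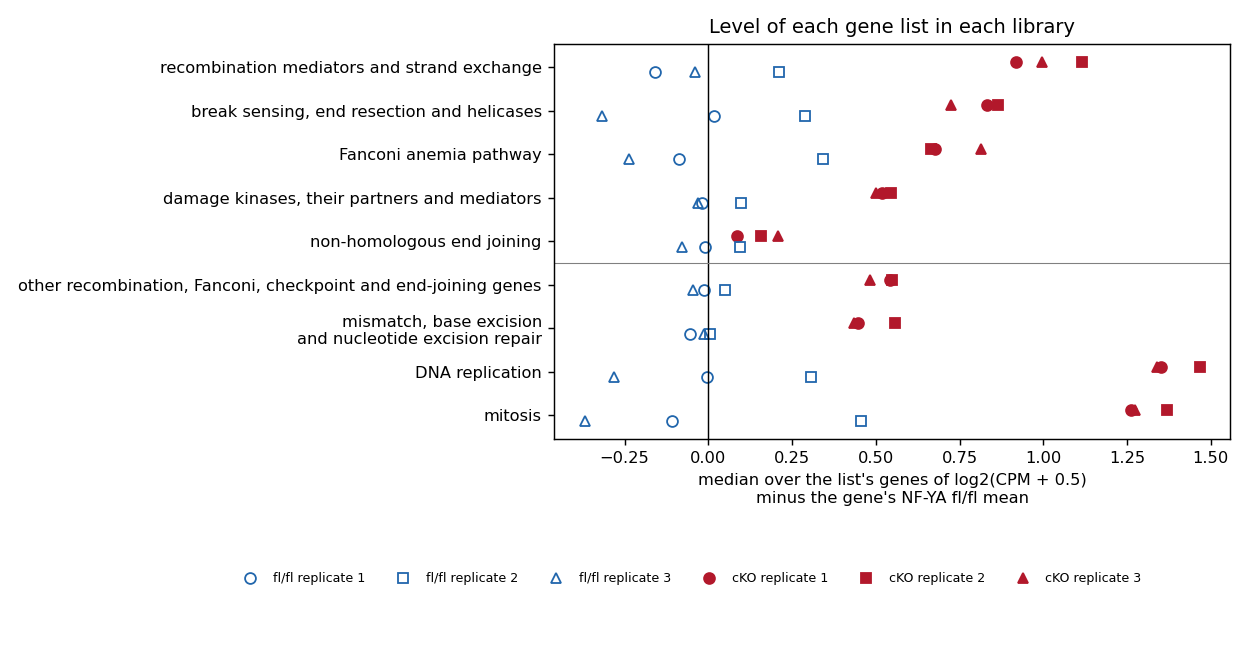
Median over the genes of each list of log2(CPM + 0.5), after subtracting the gene's NF-YA fl/fl mean, in each library (open blue symbols NF-YA fl/fl, filled red symbols NF-YA cKO, symbol shape the replicate number). The member groups are above the grey line, and the NF-YA cKO values fall from near 1.0 for recombination to 0.08 to 0.21 for end joining, while DNA replication and mitosis lie above 1.2.

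Levels per length (TPM) allow partners of one complex to be compared within a library, and are given with no test. Brca1 over Bard1 was 0.802, 0.897 and 0.903 in NF-YA cKO and 0.884, 1.04 and 0.615 in NF-YA fl/fl, and Mre11a over Rad50 was 0.915, 0.891 and 0.890 against 0.908, 0.935 and 1.06. These ratios overlapped or lay close together. Nbn over Rad50 was 1.12 to 1.15 in NF-YA cKO and 0.752 to 1.24 in NF-YA fl/fl, and Fanci over Fancd2 was 0.855 to 0.908 and 0.486 to 0.915. Ratios of other partners separated the genotypes. Xrcc4 over Lig4 was 2.32, 2.50 and 2.84 in NF-YA cKO and 1.48, 1.52 and 1.58 in NF-YA fl/fl, with no overlap. Atr over Atrip was 2.28, 2.25 and 2.51 against 1.78, 2.09 and 1.19, again with no overlap. Xrcc5 over Xrcc6 was 0.458, 0.516 and 0.529 against 0.80, 0.739 and 0.515, where the third NF-YA fl/fl library lay within the NF-YA cKO values. The RNA ratios say nothing of protein amounts, which were not measured here.

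The transcript forms of the members were examined as a readout that the gene totals do not use. In genes with a mean of at least 1 TPM, 88 transcripts of 36 members took on average between 10% and 90% of their gene's TPM. For 19 of them, from 13 genes, the shares did not overlap between genotypes, where 24.0% of the 16449 such transcripts of all genes did not overlap, so the members' count was near the background. With 3 libraries against 3 the exact permutation test (two-sided) cannot go below p = 0.1, which each of the 19 reached. These shares are estimates, since RSEM splits reads between overlapping forms, and the forms are named by their length.
Among the 19 transcripts whose shares did not overlap, the largest differences in mean share were in Brip1, Rad52 and Fancc. A Fancc form of 3134 nt took 24.5%, 24.4% and 11.5% of Fancc TPM in NF-YA cKO and 0, 0 and 0.22% in NF-YA fl/fl, beside a total for the gene that was slightly lower in NF-YA cKO. A predicted non-coding Brip1 transcript of 2737 nt took 25.2% ± 3.66 in NF-YA cKO and 2.36% ± 4.09 in NF-YA fl/fl (SD, n = 3), and the coding form of 6933 nt took 66.3% ± 5.26 and 90.2% ± 12.2. A Rad52 form of 1698 nt took 60.9% ± 6.75 in NF-YA cKO and 40.1% ± 11.4 in NF-YA fl/fl. In Chek1 the form of 3397 nt took 89.3% ± 2.73 in NF-YA cKO and 77.1% ± 5.12 in NF-YA fl/fl, and in Rad54l a predicted non-coding form of 2848 nt took 4.97% ± 1.42 and 15.3% ± 3.45. The level of this Rad54l form itself overlapped, at 0.24, 0.34 and 0.40 TPM in NF-YA cKO and 0.39, 0.53 and 0.31 TPM in NF-YA fl/fl. A share can thus differ where only the gene's other forms do. Rad51ap1 had a smaller share of its form of 1835 nt (58.7% ± 2.20 against 75.7% ± 10.4) and Mre11a a larger share of its form of 5750 nt (43.9% ± 2.78 against 30.4% ± 5.25). The forms of Brca1 did not separate, the form of 6648 nt taking 71.9% ± 4.69 and 71.8% ± 6.38.

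**Figure D5:**
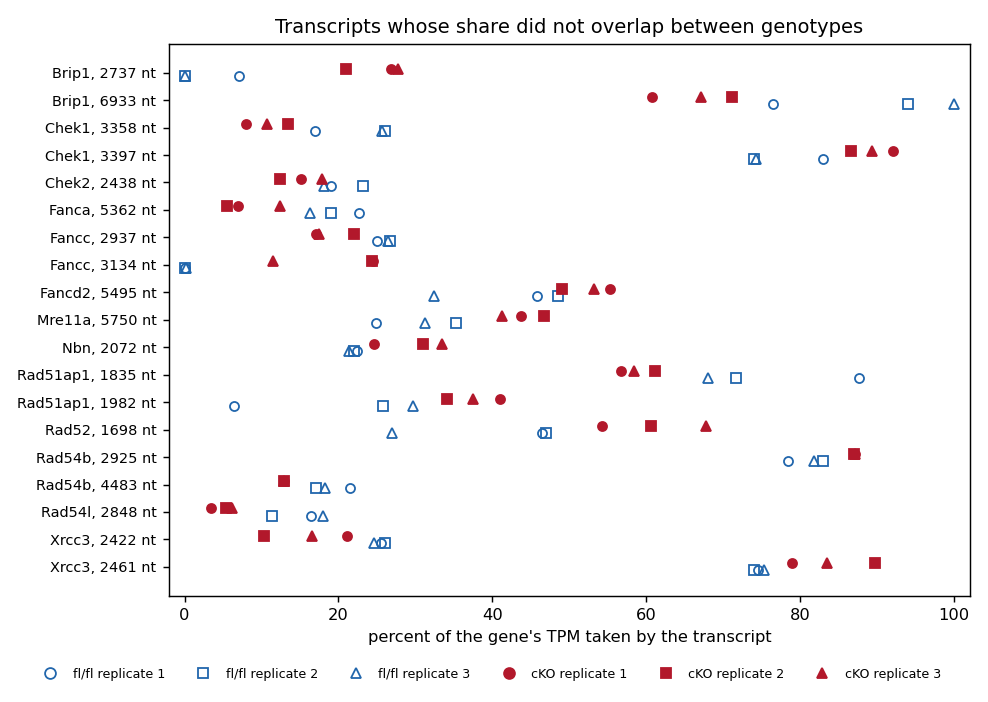
Percent of the gene's TPM taken by each of the 19 member transcripts whose shares did not overlap between genotypes, in each library (open blue symbols NF-YA fl/fl, filled red symbols NF-YA cKO, symbol shape the replicate number). The 3134 nt form of Fancc and the 2737 nt form of Brip1 are near 0 in most NF-YA fl/fl libraries and between 11.5% and 27.7% in NF-YA cKO.

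The promoter words were then read beside the levels, as a description. Of the 21 members with a promoter that were higher at an FDR under 0.05, 13 held CCAAT and 6 held an E2F word. Of the 9 that did not pass, 7 held CCAAT and 2 an E2F word, and of the 3 that were lower 0 held either. Fancc, with a box at -242, is counted as not passing, but its decrease was near the threshold. Its FDR by edgeR was 0.0572, and 0.0444 with the size factors of DESeq2. Boxes thus occurred both in genes that rose, such as Brca1, Rad54l and Brip1, and in genes with small or no passing change, such as Xrcc3 with its 6 boxes, Atrip (log2 fold change 0.17) and Xrcc5 (0.30). Chek1 and Fanci, with log2 fold changes of 1.39 and 1.44, held neither word in this window.
Many members start beside another gene. Of the 33 with a promoter, 13 (39.4%) had a start on the opposite strand within 1000 bases. Over all 27025 genes with a promoter, tested or not, 12.2% did, and the share among tested genes was not computed. Of the members' partners 10 were tested, and at an FDR under 0.05 3 were higher and 1 was lower in NF-YA cKO. Brca1 shares its start region with Nbr1, an autophagy receptor whose start is 152 bases away, and this partner went the other way. Nbr1 stood at 119, 114 and 119 CPM in NF-YA cKO against 165, 134 and 186 CPM in NF-YA fl/fl (log2 fold change -0.46, FDR = 0.0283 by edgeR). Ankrd49, 81 bases from Mre11a, stood at 23.6, 23.5 and 23.0 CPM in NF-YA cKO against 14.0, 15.2 and 12.6 CPM in NF-YA fl/fl, for a log2 fold change of 0.74 (FDR = 0.00326) beside 0.70 for Mre11a. The other partners that passed were Npat beside Atm (0.24, FDR = 0.0498) and Tmem167 beside Xrcc4 (0.45, FDR = 0.0435). These 4 partners were named after their values were seen. The libraries were stranded, but whether the counting used strand is not given in the sources used here, so that reads of overlapping neighbours may be split between them.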

How the data were processed

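The 6 libraries of cultured SCs, 3 a genotype, were grouped by the labels. Reads were aligned by the authors with Bowtie2 (mm10 transcriptome) and summarised by RSEM into expected counts, which are neither normalized nor filtered and can be fractional because shared reads are split. RSEM's TPM, also deposited, corrects for length and library and keeps no depth. The deposited percent values give each transcript's share of its gene's TPM. The deposited FPKM values were not used, and other deposited columns (transcript and effective lengths) served only to name forms.
After rounding, 17348 genes exceeded 10 counts in 2 libraries or more. Genotypes were compared in R 4.3.3 with edgeR 4.0.16 (TMM scaling, no covariate, quasi-likelihood test, FDR by Benjamini-Hochberg). The standard error is the log2 fold change divided by the square root of F, and CPM are TMM-scaled. A member was called where the FDR was under 0.01 and the log2 fold change beyond 1, the thresholds of the Methods. The study set them on results of DESeq2, and the main test here is edgeR. With DESeq2 as run here 11 members were called higher. The script was tested on simulated counts. Alternatives were DESeq2 1.42.0, its size factors, edgeR's filterByExpr, no filter, glmTreat, limma 3.58.1 on log2(TPM + 0.1) and log2(TPM + 1), no minimum fold, the replicate block and leaving out each library. Pseudocounts in TPM fits shrink the changes of low genes. Transcript shares were compared with exact permutation tests (scipy 1.17.1). Gene spans and promoters are from RefSeq (GRCm38.p6), where 10 members had no promoter entry. Plots were drawn with matplotlib 3.10.9.
The members and lists were chosen with earlier results of these data known. Values in every library are given for called members, Brca1, Mre11a, members lower at an FDR under 0.05, end-joining members and the 2 members of each group with the highest mean TPM, and genes of other lists are named where called, up to 6 a list. Results that need a few of the listed genes are not reported here. No libraries agreed within sampling noise (chi-square per degree of freedom 13.1 or more). The 3-count limits in CPM cover counting error only.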

Additional observations from a re-analysis of the deposited data

How the results depend on the processing

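The direction of the members' changes depended little on the processing and the number past a threshold depended on it strongly. Against 8 members called higher, DESeq2 called 11, its size factors in edgeR and filterByExpr 8 each, no filter 10 and an FDR under 0.01 with no minimum fold 18 (with 1 lower, Trp53bp1), while limma called 1 on log2(TPM + 0.1) and 0 on log2(TPM + 1), with 24 higher at an unadjusted p under 0.05 in both. Of the neighbouring lists, limma called 8 and 7 replication genes, 1 and 1 mitosis genes, 2 and 2 of the 48 genes of recombination and checkpoint and 0 and 0 of the 26 of excision and mismatch repair (10 higher at an unadjusted p under 0.05 in both). The glmTreat fit called 0 in each of these lists, with 15, 8, 7 and 2 higher at an unadjusted p under 0.05. Tested against a minimum change of 1 on the log2 scale (glmTreat), the fit called 0 higher, 0 higher at an FDR under 0.05 and 0 lower, with 8 higher at an unadjusted p under 0.05. Leaving out 1 library gave 1 to 15 members called higher, 17 to 31 higher and 1 to 3 lower at an FDR under 0.05. For these alternatives the shares of all tested genes are not given here. On log2(TPM + 0.1) and log2(TPM + 1), 11 and 10 members were higher at an FDR under 0.05 and 2 and 1 lower.
Group medians of the log2 fold change moved by more than the spread between libraries on log2(TPM + 1), to 0.73 for recombination, 0.66 for sensing and resection, 0.36 for kinases and 0.070 for end joining, and on log2(TPM + 0.1) to 0.40 for kinases. The cause was not tested. Leaving out 1 library, they ranged from 0.95 to 1.23, 0.66 to 0.90, 0.55 to 1.04 (Fanconi), 0.42 to 0.56 and 0.039 to 0.15. Of the named members Rad51d changed sign, to -0.0064 without NF-YA cKO replicate 2 and -0.076 without NF-YA fl/fl replicate 2, and ranged up to 0.13. Transcripts with separate shares numbered 11 with a gene mean of at least 5 TPM and 22 to 31 without 1 library. The share over all such transcripts is not given for these settings. Groups separate more readily with a library left out, so these counts show nothing particular to the members.
The labels do not say whether equal replicate numbers pair the libraries. Deviations of same-numbered libraries correlated at 0.17, -0.07 and 0.05, and with 3 libraries a genotype such values cannot decide it. With the replicate number as a block, 9 members were called higher, and 27 were higher and 1 lower at an FDR under 0.05. Depth was not limiting, since every member had at least 54 counts in each library, and 3 libraries a genotype limit the precision.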
